A study of Homo sapiens with 4 samples.

Results

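A set of 10 genes that are switched on by ERK signalling, most of which restrain it, was followed in BEAS-2B, an established line of human bronchial epithelial cells. The members were DUSP1, DUSP4, DUSP5 and DUSP6, SPRY1, SPRY2 and SPRY4, SPRED1 and SPRED2, and PHLDA1, chosen by symbol in a deposited table of 39635 genes. All 10 were found once and all 10 passed the filter on low counts, which 15336 genes passed. The question of the series was what loss of FER, a non-receptor tyrosine kinase, does to gene expression in these cells. Polyadenylated RNA was sequenced from 2 libraries of cells with a control short hairpin RNA (shControl, genotype CTL) and 2 libraries of cells with a hairpin against Fer (shFer, genotype Fer knockdown; called libraries labelled shFer here), all grown in N2B27 medium. The labels give no time after transduction and do not say whether the cells were pools or clones, how many hairpins were used, or whether the replicates were separate cultures. The p-values therefore measure only the spread between these libraries, which may be technical.

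The mitogen-activated protein kinase (MAPK) cascade runs from growth factor receptors through RAS, RAF and MEK to ERK. ERK in turn raises the transcription of its own inhibitors, so their mRNAs are widely read as a trace of recent ERK activity. Dual-specificity phosphatases (DUSPs) remove phosphate from MAP kinases, Sprouty proteins (SPRY) and Sprouty-related proteins (SPRED) act upstream at the level of receptors, RAS and RAF, and PHLDA1 is a protein whose gene responds to the same pathway. Most of these mRNAs are short-lived and turn over quickly.

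Library totals ran from 21422976 to 25169713 counts, and the 10 members together held between 0.123% and 0.156% of them. Levels are given as CPM, counts scaled to a common library total, here with TMM factors. In bulk RNA, more cells that express a gene and more RNA per cell cannot be told apart. FER itself had 334 and 459 counts in the controls and 404 and 535 in the libraries labelled shFer, which is 0.02 ± 0.17 in log2 (SE, adjusted p = 0.976 in edgeR's quasi-likelihood test), so FER mRNA goes against the knockdown label. Genes of the mitochondrial chromosome took 16.9% and 19.4% of the control counts and 9.62% and 9.37% of those labelled shFer. The epithelial keratin genes KRT8 and KRT18 had at least 34748 and 17167 counts in every library, but the basal cell markers KRT5 and TP63 had at most 12 and 8. KRT7 ran from 211 to 309 CPM. The epithelial genes KRT19, CDH1 and EPCAM were low, at 5.63 to 7.71, 7.33 to 10.5 and 2.74 to 4.97 CPM. Of the markers of other cell types, the summed levels of the 5 immune genes ran from 0.226 to 1.15 CPM and those of 3 endothelial genes from 1.63 to 2.64 CPM. The 6 fibroblast genes summed to 77.6 and 81.5 CPM in control and 58.3 and 59.1 CPM in the libraries labelled shFer, nearly all from COL1A1, while DCN and LUM had 0 counts. The 5 neural genes summed to 2.79 to 4.40 CPM. The filter on low counts kept 6 of 8 epithelial, 2 of 6 fibroblast, 2 of 3 endothelial, 3 of 5 neural and 0 of 5 immune markers. Of those kept, 0 passed the test between the groups, against 0.646% of all tested genes. The others could not pass.

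Promoters are shown for the member that varied most between libraries (DUSP1), for the member with the lowest log2 fold change (SPRED2, which has 2 start sites) and, for contrast, for DUSP6, in which no searched motif was found. They come from a RefSeq table on GRCh38.p14 and run from 250 bases before to 50 bases after the start. Capitals mark a cyclic AMP response element (CRE, TGACGTCA), the shorter CRE core (TGACG, or CGTCA on the other strand) or an AP-1 site (TGANTCA).
DUSP1, chr5:172771146-172771445, minus strand: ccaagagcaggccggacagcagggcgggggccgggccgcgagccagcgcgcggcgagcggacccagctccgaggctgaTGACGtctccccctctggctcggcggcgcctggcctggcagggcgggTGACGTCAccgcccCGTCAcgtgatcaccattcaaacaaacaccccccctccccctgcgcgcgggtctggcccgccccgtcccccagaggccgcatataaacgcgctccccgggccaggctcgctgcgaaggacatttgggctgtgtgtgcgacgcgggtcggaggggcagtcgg
SPRED2 upstream start, chr2:65432550-65432849, minus strand: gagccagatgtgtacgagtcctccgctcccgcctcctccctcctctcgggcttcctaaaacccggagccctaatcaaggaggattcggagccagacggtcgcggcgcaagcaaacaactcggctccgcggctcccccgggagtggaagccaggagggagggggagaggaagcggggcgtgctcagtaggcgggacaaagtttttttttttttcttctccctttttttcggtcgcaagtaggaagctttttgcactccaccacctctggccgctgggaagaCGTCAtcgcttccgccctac
SPRED2 downstream start, chr2:65366729-65367028, minus strand: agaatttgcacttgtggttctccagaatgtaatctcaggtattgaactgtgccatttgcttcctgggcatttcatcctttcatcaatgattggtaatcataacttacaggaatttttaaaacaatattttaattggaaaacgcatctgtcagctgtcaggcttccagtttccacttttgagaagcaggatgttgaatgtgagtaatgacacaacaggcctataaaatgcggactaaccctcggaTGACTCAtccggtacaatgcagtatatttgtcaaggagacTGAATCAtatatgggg
DUSP6, chr12:89352452-89352751, minus strand: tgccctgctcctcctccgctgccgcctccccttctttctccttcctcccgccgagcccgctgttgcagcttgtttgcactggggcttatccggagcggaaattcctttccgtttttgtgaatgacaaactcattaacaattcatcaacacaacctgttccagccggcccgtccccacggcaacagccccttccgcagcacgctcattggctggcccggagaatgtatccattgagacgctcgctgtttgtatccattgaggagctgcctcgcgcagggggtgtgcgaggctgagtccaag

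The table gave 12 promoters for 8 members, with no entry for DUSP4 and DUSP5. Both strands were searched. A full CRE was found in 1 of the 12, that of DUSP1, beside 1.85% of all 35116 promoters of the same length. The shorter core, which every full CRE contains, was found in 4 of the 12 (DUSP1, SPRY2, SPRY4 and SPRED2) and in 24.6% of all promoters. An AP-1 site was found in 1 of the 12, the downstream start of SPRED2, and in 7.71% of all. The ETS core CCGGAAGT (4.14% of all) and the CArG box, which serum response factor binds (1.29% of all), were found in 0 of the 12. A match describes these letters only, and a missing one says nothing of the factor.

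The transcripts of the 4 phosphatases and PHLDA1 were the most abundant of the members. Per length, as CPM per kilobase of the deposited gene length, DUSP1 had a median of 78.4 over the 4 libraries and DUSP4 one of 77.2, which 96.9% of tested genes did not exceed. Their order could not be told, since DUSP1 ranged from 40.7 to 107 and DUSP4 from 72.9 to 81.9. PHLDA1 followed at a median of 54.5, DUSP5 at 36.2, DUSP6 at 13.4 and SPRED2 at 6.92, and each of these lay above the next in all 4 libraries. DUSP4 lay above PHLDA1 in all 4, while DUSP1 lay below PHLDA1 in control 1. The Sprouty genes and SPRED1 were lowest, with medians of 5.66 for SPRY2, 4.39 for SPRY1, 3.51 for SPRY4 and 3.33 for SPRED1. Each lay above the next within every library, but their ranges over the 4 libraries overlapped.

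None of the 10 members passed the test between the groups. Over all 15336 genes, 99 passed edgeR's quasi-likelihood test at the threshold of 0.05 on adjusted p (0.646%), with 0.28% higher and 0.365% lower. At an unadjusted p of 0.05, 1 of the 10 members passed, against 17.7% of all tested genes. In DESeq2 and in limma-voom 0 members passed as well, where 3.78% and 1.16% of all genes did. The estimate was above 0 for 3 of the 10, against 51.9% of all tested genes. The members' log2 fold changes ran from -0.34 to 0.43 with a median of -0.05, or 0.11 with library totals alone, beside medians of 0.01 and 0.18 for all tested genes. The 95% interval of the difference lay within 2-fold either way for 10 of the 10 members and within 1.5-fold for 5. The shares of all tested genes within these bounds were not counted, so these counts do not set the members apart. With both libraries of one group beyond both of the other, DUSP5 lay higher (25.8% of all tested genes did so) and SPRED2 lower (23.4%). The mitochondrial share differed between the same groups, and its part in these values was not tested. With those genes left out of the fit, 0 members passed, against 0.498% of all tested genes, and DUSP5 stood at 0.42.

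**Figure D1:**
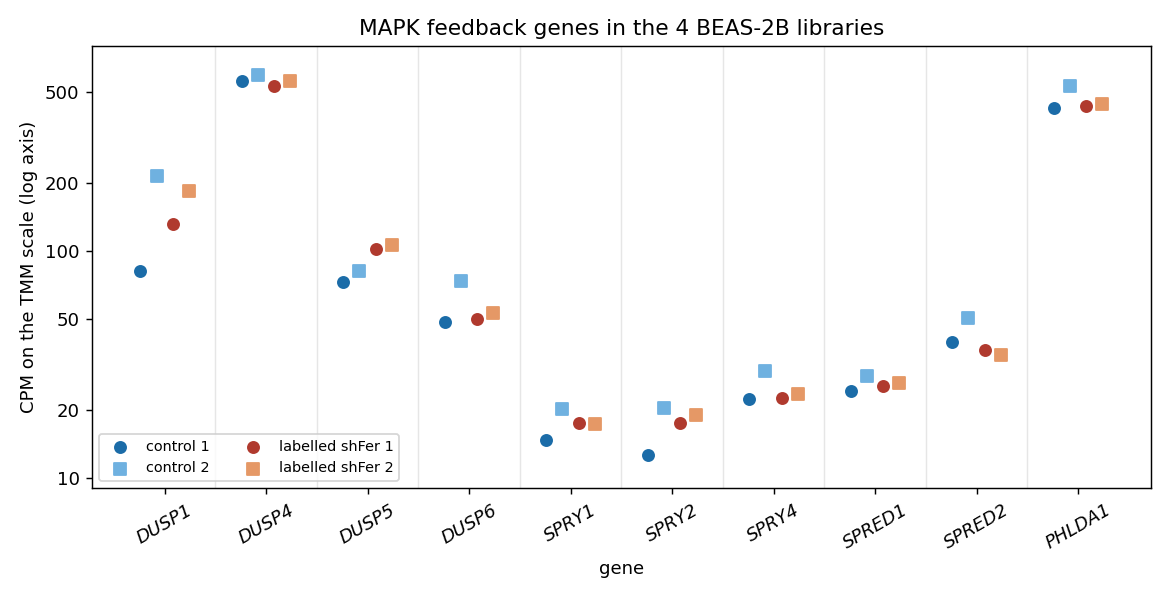
CPM of each member on a log axis in the 4 libraries, with circles for replicate 1 and squares for replicate 2 of control (blue) and of the libraries labelled shFer (red and orange). DUSP5 is the only member with both red and orange points above both blue ones, SPRED2 the only one with both below, and control 2 lies above control 1 for all 10.

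DUSP5, a nuclear phosphatase specific for ERK, came closest to the threshold among the members. It had 1496 and 1764 counts in the controls and 2317 and 2826 in the libraries labelled shFer, or 73.2 and 81.3 CPM against 102 and 106 CPM. Both libraries labelled shFer lay above both controls. The mean went from 77.3 ± 5.78 to 104 ± 3.09 CPM (SD, n = 2 each). This difference was 0.43 ± 0.13 (SE) in log2, with 0.15 and 0.72 as the ends of its 95% interval, and missed the threshold (adjusted p = 0.130, edgeR's quasi-likelihood test). DUSP5 was also the only member whose group means differed by more than the 2 controls differed from each other. The share of all tested genes that did so was not counted. With library totals alone in place of TMM factors it passed, at 0.60 (adjusted p = 0.0439), where 2.89% of all genes passed and the median of all genes was 0.18. The divergent transcript DUSP5-DT, which shares no exonic bases with DUSP5, had 3.62 and 2.95 CPM in control and 4.27 and 2.90 CPM in the libraries labelled shFer, and its groups overlapped.

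DUSP1, which acts on p38, JNK and ERK and is induced by stress and glucocorticoids as well as by growth factors, had the widest range of the members. Its levels were 82.0 and 214 CPM in the controls and 131 and 184 CPM in the libraries labelled shFer, from 1676, 4650, 2980 and 4900 counts. Both libraries labelled shFer lay between the 2 controls. The difference was 0.09 ± 0.34 in log2 (SE, 95% interval -0.67 to 0.86, adjusted p = 0.925 in edgeR's quasi-likelihood test). Its value turned direction with the control used, from -0.45 without control replicate 1 to 0.92 without control replicate 2. Without replicate 2 of the libraries labelled shFer it was -0.18.

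DUSP4, a nuclear phosphatase for ERK and JNK, had the narrowest range of the members as a ratio of highest to lowest CPM, and the most counts. It stood at 559 and 595 CPM in the controls and 530 and 563 CPM in the libraries labelled shFer, and the groups overlapped. The log2 fold change was -0.08 with a 95% interval of -0.33 to 0.17 (0.80-fold to 1.13-fold), and it was 0.09 with library totals alone. DUSP6, the cytoplasmic phosphatase for ERK, stood at 48.7 and 74.1 CPM in the controls and 50.4 and 53.1 CPM in the libraries labelled shFer. Both of the latter again lay between the controls, with a log2 fold change of -0.25 (95% interval -0.66 to 0.17, adjusted p = 0.538 in edgeR's quasi-likelihood test). An opposite-strand gene covers 40.5% of the exonic bases of DUSP6 in GENCODE 29, and with the strand setting not given their reads cannot be told apart.

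SPRY1, SPRY2 and SPRY4 encode Sprouty proteins, which are phosphorylated after receptor activation and hold back signalling to RAS and RAF. SPRY1 stood at 14.7 and 20.2 CPM in the controls and 17.5 and 17.2 CPM in the libraries labelled shFer. SPRY2 stood at 12.7 and 20.3 CPM and at 17.5 and 18.9 CPM. SPRY4 stood at 22.4 and 29.5 CPM and at 22.5 and 23.5 CPM. In all 3 genes both libraries labelled shFer lay between the controls, so the groups overlapped. The log2 fold changes were -0.01 for SPRY1 (95% interval -0.41 to 0.40), 0.14 for SPRY2 (-0.34 to 0.61) and -0.17 for SPRY4 (-0.55 to 0.20), and that of SPRY1 was 0.16 with library totals alone. The antisense gene SPRY4-AS1, which shares no exonic bases with SPRY4 in GENCODE 29, stood at 2.45 and 2.91 CPM in control and 1.76 and 1.62 CPM in the libraries labelled shFer (log2 fold change -0.66, adjusted p = 0.295 in edgeR's quasi-likelihood test).

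SPRED1 and SPRED2 encode membrane proteins that bring neurofibromin, a RAS-inactivating protein, to RAS. SPRED2 stood at 39.7 and 50.9 CPM in the controls and 36.5 and 35.0 CPM in the libraries labelled shFer, with both of the latter lower. Its mean went from 45.3 ± 7.89 to 35.7 ± 1.05 CPM (SD, n = 2 each), which is -0.34 ± 0.15 in log2 (SE, 95% interval -0.69 to 0.00, adjusted p = 0.283 in edgeR's quasi-likelihood test). SPRED1 stood at 24.3 and 28.3 CPM and at 25.4 and 26.2 CPM, with overlapping groups and a log2 fold change of -0.03 (95% interval -0.36 to 0.31), or 0.14 with library totals alone. NF1, which encodes neurofibromin, stood at 51.1 and 74.7 CPM in the controls and 56.7 and 57.8 CPM in the libraries labelled shFer, again between the controls.

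PHLDA1, which carries a pleckstrin homology-like domain, stood at 428 and 531 CPM in the controls and 437 and 442 CPM in the libraries labelled shFer. The latter had a ratio of 1.01 to each other and lay between the controls, with a log2 fold change of -0.13 (95% interval -0.41 to 0.16), or 0.04 with library totals alone. Opposite-strand genes cover 16.5% of its exonic bases, and the rows of those genes, PHLDA1-AS1 and PHLDA1-DT, held at most 11 counts and 0 counts in a library.

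The 2 control libraries differed in the same direction in every member. Control 2 exceeded control 1 in 10 of 10 members, while it did so in 50.3% of all tested genes. In the libraries labelled shFer, replicate 2 exceeded replicate 1 in 8 of 10 members, against 52.0% of all tested genes. The ratio between the controls was 2.62 for DUSP1 (95% Clopper-Pearson interval 2.47 to 2.77, counting error only), 1.61 for SPRY2 and 1.52 for DUSP6, and it was 1.06 for DUSP4 and 1.11 for DUSP5. The interval lay above 1 for all 10. Of all tested genes, 2.71% had a wider gap between the controls than DUSP1, 11.2% a wider one than SPRY2 and 82.0% a wider one than DUSP4. The median absolute log2 gap between the controls was 0.38 over the members and 0.26 over all tested genes. Between the libraries labelled shFer it was 0.06 and 0.12, and the counting interval of their ratio included 1 for 8 of the 10. The exceptions were DUSP1, at 1.41 (1.34 to 1.47), and DUSP4, at 1.06 (1.04 to 1.09). All 10 members had a wider gap in control, and the median gap over all tested genes was wider in control as well. Shares of all tested genes for these counts of intervals and of wider gaps were not taken.

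**Figure D2:**
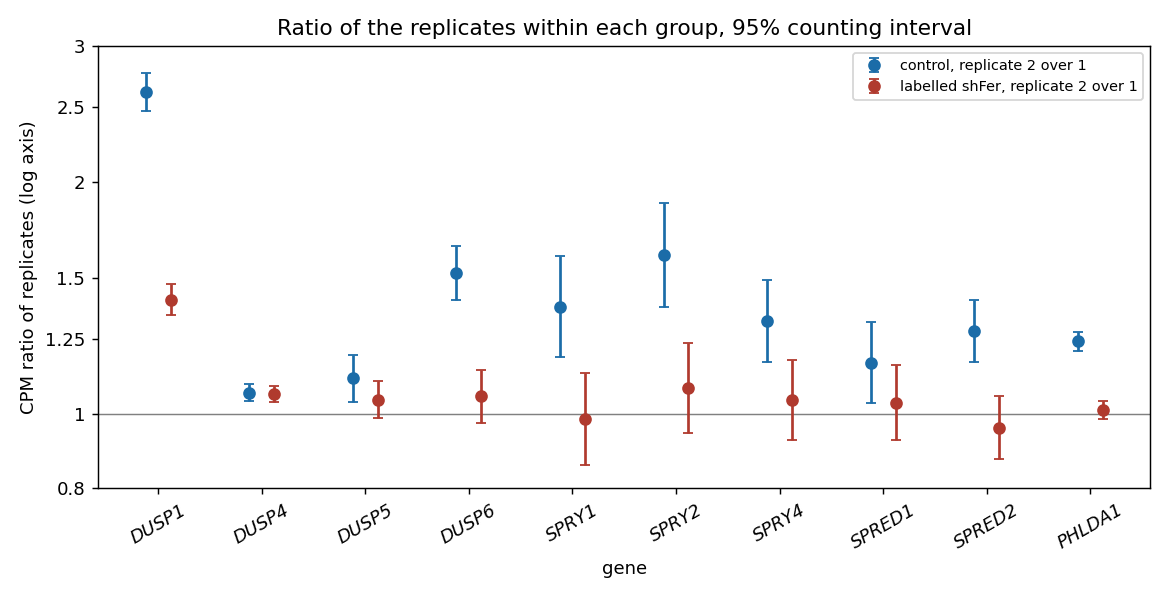
Ratio of replicate 2 to replicate 1 in CPM, on a log axis, for control (blue) and the libraries labelled shFer (red), with 95% Clopper-Pearson intervals for counting error. All 10 blue points lie above 1, up to 2.62 for DUSP1, and all red points other than that of DUSP1, at 1.41, lie between 0.959 and 1.08.

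Which members passed the test therefore depended on the control library kept. Without control replicate 1, 6 of the 10 passed, against 29.5% of all tested genes. DUSP5 was higher (0.35, adjusted p = 0.000608), and DUSP1, DUSP6 (-0.52), SPRY4 (-0.36), SPRED2 (-0.52) and PHLDA1 (-0.28) were lower. Without control replicate 2, 3 of the 10 passed, against 20.6% of all tested genes, and all 3 were higher, namely DUSP1, SPRY2 (0.50, adjusted p = 0.00694) and DUSP5 (0.49, adjusted p = 3.39e-06). These are adjusted p-values of edgeR's quasi-likelihood test in which the single control is assumed to vary like the 2 libraries of the other group, and those 2 lay closer together. DUSP5 kept its sign both ways, as did DUSP4 and SPRED2. Both fits use the same libraries labelled shFer, so they are not independent. Without replicate 1 or replicate 2 of the libraries labelled shFer 0 of the 10 passed, against 0.713% and 0.352% of all tested genes, and DUSP5 stood at 0.46 and 0.40 (adjusted p = 0.840 and 0.975). In these fits the single library labelled shFer is assumed to vary like the 2 controls.

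**Figure D3:**
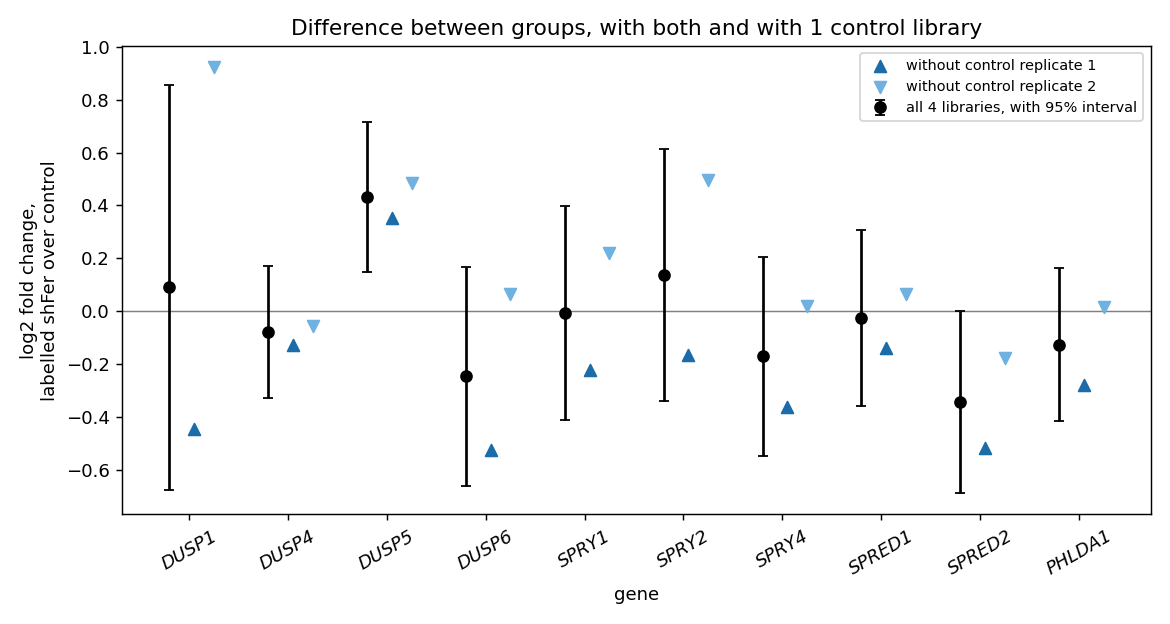
Log2 fold change of each member, libraries labelled shFer over control. Black points use all 4 libraries and carry 95% intervals, and triangles leave out control replicate 1 (pointing up) or control replicate 2 (pointing down). The triangles of DUSP5 lie at 0.35 and 0.49, on one side of 0, and those of DUSP1 at -0.45 and 0.92.

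Other genes of the pathway were taken from 9 lists, and calls in them depended on the libraries and settings used. With TMM factors and all 4 libraries, 0.646% of all tested genes passed edgeR's test, the share to set beside each list's count. Without 1 control library each list had between 1 and 12 calls, and without 1 library labelled shFer each had 0. With no filter on low counts, where 4.14% of all genes passed, 6 of the 9 lists had 1 to 3 calls. With library totals alone the medians of the phosphatase, ligand, cascade, p38 and JNK and other ERK output lists turned from below to above 0.

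Immediate-early transcription factors, whose genes are switched on by the same cascade, gave 0 genes past the threshold that were higher and 1 lower of 18 tested, with a median log2 fold change of 0.00. At an unadjusted p of 0.05, 4 were higher and 2 lower, against 17.7% of all tested genes in either direction. The calls became 2 in DESeq2 and with library totals alone and 3 with no filter. Of all genes, 3.78%, 2.89% and 4.14% passed in these settings. FOSL1, an AP-1 subunit whose gene is sustained by ERK activity, fell from 206 and 233 CPM in the controls to 139 and 126 CPM in the libraries labelled shFer. Both lay below both controls, at -0.73 ± 0.13 in log2 (SE, adjusted p = 0.0379 in edgeR's quasi-likelihood test). The call was lost without replicate 1 or 2 of the libraries labelled shFer (adjusted p = 0.247 and 0.655). Several other genes of this list, picked here after their values were seen, spread between the controls as DUSP1 did. FOSB, an AP-1 subunit, stood at 29.5 and 210 CPM in the controls and 88.3 and 133 CPM in the libraries labelled shFer. FOS stood at 59.9 and 202 CPM and at 110 and 150 CPM. EGR1, a zinc finger factor, stood at 114 and 239 CPM and at 131 and 136 CPM, and the nuclear receptor gene NR4A1 at 8.85 and 22.9 CPM and at 17.2 and 20.5 CPM. In these 4 genes the libraries labelled shFer lay between the controls. In the list as a whole, control 2 was above control 1 in 13 of 18 genes, against 50.3% of all tested genes. Replicate 2 of the libraries labelled shFer was above replicate 1 in 15 of 18, against 52.0% of all tested genes.

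Among relatives of the members and other inhibitors of receptors or RAS, 1 of 14 tested passed, against 0.646% of all tested genes, and the median log2 fold change was 0.04. At an unadjusted p of 0.05, 3 were higher and 2 lower, against 17.7% of all tested genes in either direction. The calls became 2 in DESeq2 and with library totals alone and 3 with no filter. Of all genes, 3.78%, 2.89% and 4.14% passed in these settings. PHLDA2, an imprinted relative of PHLDA1, fell from 86.6 and 80.6 CPM to 47.4 and 47.2 CPM. Both groups were tight and did not overlap, at -0.82 ± 0.13 in log2 (SE, adjusted p = 0.0302 in edgeR's quasi-likelihood test), beside -0.13 for PHLDA1. This call too was lost without replicate 1 or 2 of the libraries labelled shFer (adjusted p = 0.247 and 0.359), and the mitochondrial share was lower in the same libraries. Among 9 other MAPK phosphatase genes tested 0 passed, with a median of -0.03. The members of this list with the smallest p were DUSP10, a phosphatase for p38 and JNK, at -0.49, and PPP2CA, the catalytic subunit of phosphatase 2A, at -0.28 (adjusted p = 0.205 and 0.244).

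Of the other genes that ERK output is read from, 0 of 15 tested passed, with a median log2 fold change of -0.11 that became 0.05 with library totals alone, and 1 passed in DESeq2 and with no filter. The survival gene MCL1 stood at 0.36 (adjusted p = 0.210 in edgeR's quasi-likelihood test), and at 0.20 without control replicate 1. ETV4 and ETV5, ETS factors that follow ERK activity much as DUSP6 does, were picked after their values were seen and stood at -0.05 and -0.24 (adjusted p = 0.909 and 0.401).

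At the top of the pathway, 0 of 12 growth factor genes and 0 of 14 receptor genes tested passed, with median log2 fold changes of -0.03 and 0.04. AREG, which encodes the EGF receptor ligand amphiregulin, stood at 2.45 and 2.49 CPM in control and 5.20 and 4.48 CPM in the libraries labelled shFer, at 0.97 ± 0.25 (SE, adjusted p = 0.0978 in edgeR's quasi-likelihood test). The AREG level rests on 50 and 54 counts against 118 and 119, and AREG passed with library totals alone (adjusted p = 0.0463) and with no filter on low counts (adjusted p = 0.0136). VEGFC, a lymphatic growth factor, stood at -0.56, and the receptor genes FGFR1 and FGFR4 at -0.24 and 0.55 (adjusted p = 0.151, 0.309 and 0.319).

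In the cascade itself, 0 of 23 tested genes from adaptors to ERK passed, with a median of -0.06. MAPK3, which encodes ERK1, stood at 136 and 120 CPM in control and 90.4 and 90.4 CPM in the libraries labelled shFer, at -0.51 (adjusted p = 0.0924 in edgeR's quasi-likelihood test). MAPK3 passed in DESeq2 (adjusted p = 0.0222) and with no filter on low counts (adjusted p = 0.0194), where the list had 1 and 2 calls, and its value was -0.34 with library totals alone. MAP2K1, which encodes MEK1, stood at 0.38 (adjusted p = 0.190), and other genes cover 11.5% of its exons. Of 15 tested genes of the p38 and JNK cascades 0 passed, with a median of -0.04. The p38 kinase genes MAPK11 and MAPK14 had the smallest p of that list, at 0.45 and 0.38 (adjusted p = 0.174 and 0.179), and MAPK11 at 0.27 without control replicate 2.

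N2B27 medium is a serum-free mixture whose B27 supplement usually holds a corticosteroid, and DUSP1 is a known glucocorticoid target, so glucocorticoid-induced genes were set beside it. Of 10 tested 0 passed, with a median of 0.09 that ran from -0.13 without control replicate 1 to 0.27 without control replicate 2. GADD45A, a growth arrest gene, stood at 0.41 and ZFP36, which encodes an mRNA-destabilising protein, at -0.58 (adjusted p = 0.116 and 0.239 in edgeR's quasi-likelihood test). ZFP36 stood at 78.6 and 141 CPM in the controls and 65.7 and 81.2 CPM in the libraries labelled shFer, so that control 2 alone stood apart, and its value ran from -0.94 without control replicate 1 to -0.12 without control replicate 2. With no filter on low counts ZFP36 and GADD45A passed (adjusted p = 0.00583 and 0.0410), and GADD45A also with library totals alone (adjusted p = 0.0357). SGK1, a kinase gene picked after its values were seen, stood at 21.2 and 49.1 CPM and at 32.5 and 45.3 CPM, with the latter between the controls as for DUSP1. FKBP5, a glucocorticoid receptor cochaperone gene also picked after its values were seen, stood at 55.8 and 71.1 CPM and at 63.3 and 66.4 CPM. In the list as a whole, control 2 was above control 1 in 7 of 10 genes, against 50.3% of all tested genes. Replicate 2 of the libraries labelled shFer was above replicate 1 in 8 of 10, against 52.0% of all tested genes. The groups did not overlap for 3 higher and 3 lower genes, against 25.8% and 23.4% of all tested genes.

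**Figure D4:**
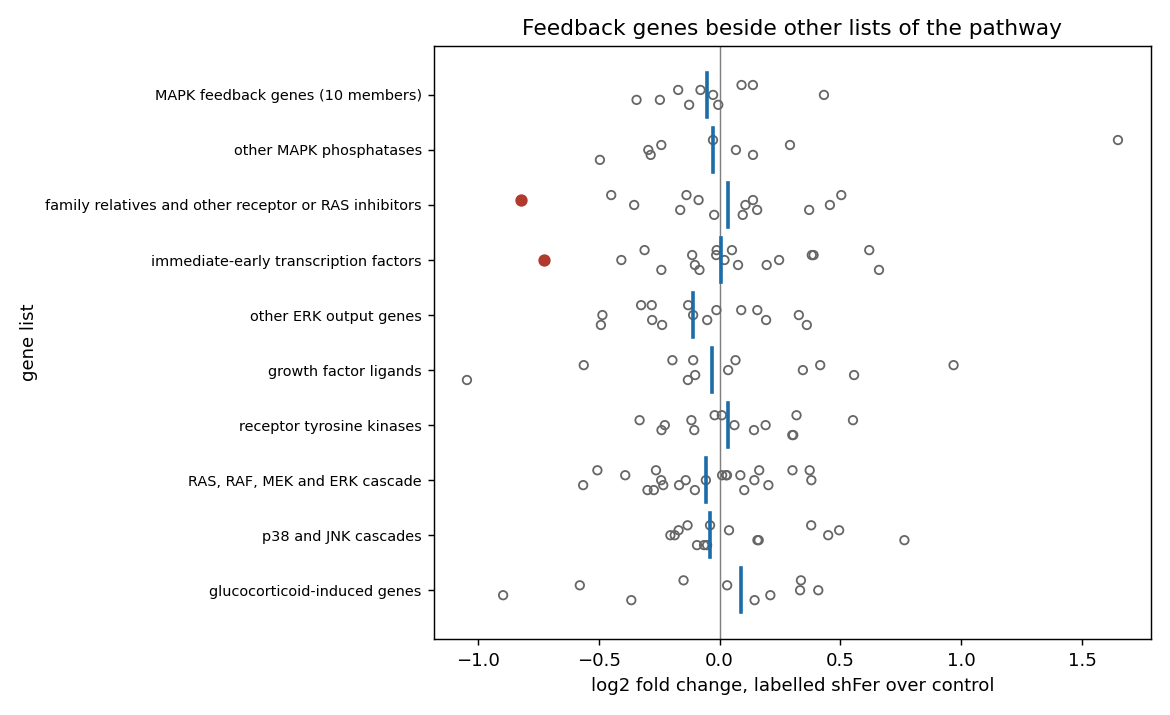
Log2 fold change, libraries labelled shFer over control, of each tested gene in the 10 feedback genes and in 9 other lists of the pathway. Filled red points passed an adjusted p of 0.05 (PHLDA2 at -0.82 and FOSL1 at -0.73), open points did not, and blue bars are list medians, which lie between -0.11 and 0.09.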

How the data were processed

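The authors deposited raw read counts per gene, with gene lengths and symbols, per the file headers. HISAT2, featureCounts and DESeq2, and the builds hg19 and mm10, are named in the submitters' processing notes without roles; for the strand setting and the annotation release, nothing is given in the sources used here. The column of replicate 1 of Fer knockdown has a shortened name and was matched as the only such library with that number. One row of the table (1 of 39635) held no values. Genes were kept by filterByExpr, libraries were scaled by TMM, and groups were compared with edgeR 4.0.16 in R 4.3.3 by a two-sided quasi-likelihood test without a block, with Benjamini-Hochberg adjustment over all 15336 genes at 0.05. SE came from the fold change and the F statistic. DESeq2 1.42.0, limma 3.58.1 (voom), other scalings and filters, a replicate block, and each library left out were alternatives. The test was tried on simulated counts. Exon overlaps came from GENCODE 29 and promoters from RefSeq, both on GRCh38, another build than hg19. Named genes were FER, the members and, of each other list, up to 4 that passed or else the 2 with the smallest p. Members and lists were chosen with earlier results of these data known. One gene that this rule takes (1 of the other ERK output genes) is not reported here. NF1 and the antisense and divergent transcripts were named outside that rule, after their values were seen.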

Additional observations from a re-analysis of the deposited data

How the results depend on the processing

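The number of members past the threshold was 0 with each scaling, filter and tool tried except library totals alone, where it was 1 (DUSP5), and ran from 0 to 6 with 1 library left out. The members' median log2 fold change ran from -0.25 to 0.065 with 1 library left out and from -0.068 to 0.11 otherwise. The 99 calls over all genes became 192 with upper-quartile factors, 443 with library totals alone (396 higher, 47 lower), 580 in DESeq2, 178 in limma-voom and 993 with no filter on low counts, and ran from 56 to 4734 with 1 library left out. The replicate block gave 990 calls, none of them a member, and among named genes AREG, VEGFC, MAPK3 and ZFP36 then passed (adjusted p = 0.0259, 0.0371, 0.0259 and 0.0189). Same-numbered libraries deviated together with a correlation of 0.037 over genes, and nothing in the labels ties the numbers to a shared culture. Directions turned with library totals alone for DUSP4 (0.085), SPRY1 (0.16), SPRED1 (0.14), PHLDA1 (0.038) and the medians of the members (0.11), the other MAPK phosphatases (0.14), other ERK output genes (0.053), ligands (0.13), the cascade (0.11) and p38 and JNK (0.12), and for SPRY1 also in limma-voom (0.011) and with the replicate block (0.0090). With 1 library left out, the direction turned for DUSP1 (-0.45 to 0.92), DUSP6 (-0.52 to 0.066), SPRY1 (-0.22 to 0.22), SPRY2 (-0.17 to 0.50), SPRY4 (-0.36 to 0.019), SPRED1 (-0.14 to 0.065) and PHLDA1 (-0.28 to 0.015), and kept its sign for DUSP4 (-0.13 to -0.037), DUSP5 (0.35 to 0.49) and SPRED2 (-0.52 to -0.18). The medians of 8 of the 9 other lists took both signs, the exception being other ERK output genes. The receptor median also turned with the filter of 5 CPM (-0.036), and the immediate-early median, near 0, with DESeq2 size factors, in DESeq2 and without mitochondrial genes. For members, the lowest values came without control replicate 1 and, except for DUSP4, the highest without control replicate 2. The cause was not tested. Each member had at least 259 counts in every library.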
